A study of Homo sapiens with 6 samples.

Results

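Non-homologous end joining is the pathway that rejoins the ends of broken DNA, and this report describes the mRNA of 10 of its genes with and without inhibition of DOT1L. The genes were chosen by name (XRCC4, XRCC5, XRCC6, PRKDC, LIG4, NHEJ1, DCLRE1C, POLL, POLM and TP53BP1) from the 58735 genes of the deposited count table. Of the 10, 9 had enough reads to be among the 15496 genes tested, and NHEJ1 did not. The cells were SW1990, an established line of pancreatic ductal adenocarcinoma. The treated group was 3 samples given 5 µM EPZ-5676, a small molecule that blocks DOT1L, an enzyme that methylates histone H3 along active genes. The control group was 3 samples that the treatment protocol describes as given the same volume of DMSO and the sample characteristics describe as untreated. How long the cells were treated is not stated in the material used, and nothing says that the samples of a group were separate cultures, so the p-values measure the spread among these 6 libraries alone, and that may be technical. By their labels, all 6 samples come from a single cell line and differ only in the compound, and the identity of the line was not tested.

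In end joining, the ring formed by the Ku proteins, encoded by XRCC5 and XRCC6, slides onto a DNA end and recruits the catalytic subunit of the DNA-dependent protein kinase, encoded by PRKDC. The nuclease Artemis (DCLRE1C) trims ends that cannot be joined directly, and the polymerases lambda (POLL) and mu (POLM) fill gaps. DNA ligase IV (LIG4) seals the ends, held in place by its scaffold XRCC4 and by the related protein XLF (NHEJ1). 53BP1 (TP53BP1) binds modified histones beside a break and limits resection of the ends, which favours end joining over recombination. Its tandem Tudor domain was once described as a reader of the histone H3 mark that DOT1L writes, while later work assigned the main interaction to a methylated lysine of histone H4. Protein, histone marks and repair itself were not measured here.

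The libraries held 33970420 to 39749648 reads assigned to genes. Levels are given as CPM, the share of reads in a library after TMM scaling, which adjusts for depth and composition. The keratin genes KRT8, KRT18 and KRT7, from a list of epithelial markers, lay at 1142 to 3974 CPM over the 6 libraries. MUC1 lay at 22.7 to 40.8 CPM. The other 3 markers of the epithelial list were at or near 0. CDH1 had no reads in any library, KRT19 lay at 0.202 to 0.744 CPM and EPCAM at 0.656 to 2.59 CPM. The summed level of the 7 epithelial markers was 5365 to 6168 CPM in controls and 6549 to 8341 CPM in treated cells, and its part in the results below was not tested. The leukocyte markers PTPRC, CD3E and CD68 summed to 4.81 CPM in control replicate 2, against 0 to 0.228 CPM in the other 5 libraries. Without that library the counts of end-joining genes that changed were the same, 4 lower and 2 higher. The fibroblast list summed to 47.7 to 61.3 CPM in controls and 67.9 to 76.7 CPM in treated cells. Most of that sum was COL1A1, with means of 44.3 CPM in controls and 61.6 CPM in treated cells. PDGFRB went from 6.80 to 9.03 CPM, while LUM went the other way, from 3.74 to 1.82 CPM. The endothelial list summed to 1.63 to 3.18 CPM in controls and 1.37 to 3.25 CPM in treated cells, and the acinar genes had no reads. DOT1L itself lay at 69.4 to 100.5 CPM in controls and 79.7 to 102 CPM in treated cells. In bulk RNA, fewer cells that express a gene and less RNA per cell cannot be told apart.

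The start regions of the genes are shown first, so that the DNA in front of genes that fell can be compared with that of genes that rose. RefSeq (GRCh38.p14) had an entry for 8 of the 10 genes, all except XRCC5 and PRKDC. The 250 bases before the start are printed for XRCC4, which had the largest fall with treatment, for POLM and POLL, which rose, and for DCLRE1C, which did not pass the test and has the most AT-rich start region of the 8. Capitals mark matches on either strand to 7 motifs. The GC box was searched as GGGCGG, which the factor Sp1 is known to bind. The CCAAT box was searched by the letters of its name, and the TATA box as TATAAA where the basal machinery can bind. The core bound by ETS factors was CCGGAAGT and the cyclic AMP response element was TGACGTCA. The E2F site was TTTCCCGC, and NRF1 was searched by its palindromic site. Matches to GC boxes may overlap each other.
XRCC4 (chr5:83077297-83077546, plus strand): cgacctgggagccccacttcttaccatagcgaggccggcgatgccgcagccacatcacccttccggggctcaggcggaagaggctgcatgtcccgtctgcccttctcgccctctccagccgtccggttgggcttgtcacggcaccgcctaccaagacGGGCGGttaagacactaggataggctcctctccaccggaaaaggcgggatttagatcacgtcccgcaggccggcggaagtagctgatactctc
POLM (chr7:44082531-44082780, minus strand): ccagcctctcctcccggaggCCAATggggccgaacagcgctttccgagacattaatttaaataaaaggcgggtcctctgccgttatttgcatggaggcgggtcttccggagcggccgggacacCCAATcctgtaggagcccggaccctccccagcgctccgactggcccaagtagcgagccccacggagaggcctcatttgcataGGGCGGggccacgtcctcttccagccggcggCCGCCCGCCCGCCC
POLL (chr10:101588271-101588520, minus strand): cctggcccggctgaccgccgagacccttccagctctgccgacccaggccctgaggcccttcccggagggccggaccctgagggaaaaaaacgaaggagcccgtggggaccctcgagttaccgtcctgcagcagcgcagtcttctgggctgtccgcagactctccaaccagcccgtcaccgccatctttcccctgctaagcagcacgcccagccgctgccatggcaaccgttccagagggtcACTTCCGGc
DCLRE1C (chr10:14954433-14954682, minus strand): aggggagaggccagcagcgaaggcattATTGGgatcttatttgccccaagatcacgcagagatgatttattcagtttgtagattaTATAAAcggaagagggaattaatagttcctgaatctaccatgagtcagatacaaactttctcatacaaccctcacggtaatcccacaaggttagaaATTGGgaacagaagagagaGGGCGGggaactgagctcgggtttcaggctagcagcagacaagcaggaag

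A GC box was found in front of XRCC4 (1 match), TP53BP1 (2), POLM (4), XRCC6 (3), NHEJ1 (2) and DCLRE1C (1) but not POLL or LIG4, and 42.6% of all 35116 start regions in the RefSeq table held one. CCAAT boxes were found for TP53BP1 (1), POLM (2), XRCC6 (1) and DCLRE1C (2), against 32.0% of all start regions. POLL had an ETS core, as did LIG4, and 3.42% of all start regions held that sequence. TATA boxes were seen only in DCLRE1C among the 8 genes with an entry, and none of the 8 had a match to the cyclic AMP, NRF1 or E2F letters in this window. The GC content of the 250 bases was 63.6% for XRCC4 and XRCC6, 66.4% for TP53BP1, 66% for POLM and 67.2% for POLL, all above the median of 58% over all start regions, and 45.6% for DCLRE1C. Among XRCC4, TP53BP1, POLM and POLL, neither these letters nor GC content in front of the start set the pair that fell apart from the pair that rose. They did differ in the transcripts themselves, as described further on.

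Of the 9 tested genes, 4 were lower in treated cells (XRCC4, XRCC5, PRKDC and TP53BP1) and 2 were higher (POLL and POLM), with Benjamini-Hochberg adjusted p below 0.05 over all tested genes (edgeR, quasi-likelihood). Over all 15496 genes, 18.7% were lower and 15% were higher, 33.7% in all. The fold changes of the 9 genes had a median of -0.51 on the log2 scale, against -0.052 over all tested genes. In 3 of the 9, every treated library lay below every control, and in another 3 every treated library lay above every control. Over all tested genes these shares were 24.2% and 21.8%. The lower genes encode the scaffold of the ligase, 1 of the Ku subunits, the kinase and 53BP1, and the higher ones the gap-filling polymerases. When trends with GC content and transcript length were removed from each library, described below, only XRCC5 passed the threshold. The median log2 fold change of the 9 genes was then 0.019, against -0.0045 over all tested genes. A fit with the replicate number as a block called 3 of the 9 lower and 1 higher, against 14.3% and 10.8% of all genes (25.1% in all). Without the low-count filter 4 were lower and 1 higher, against 10.9% and 8.27% of 26766 genes (19.1% in all).

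**Figure D1:**
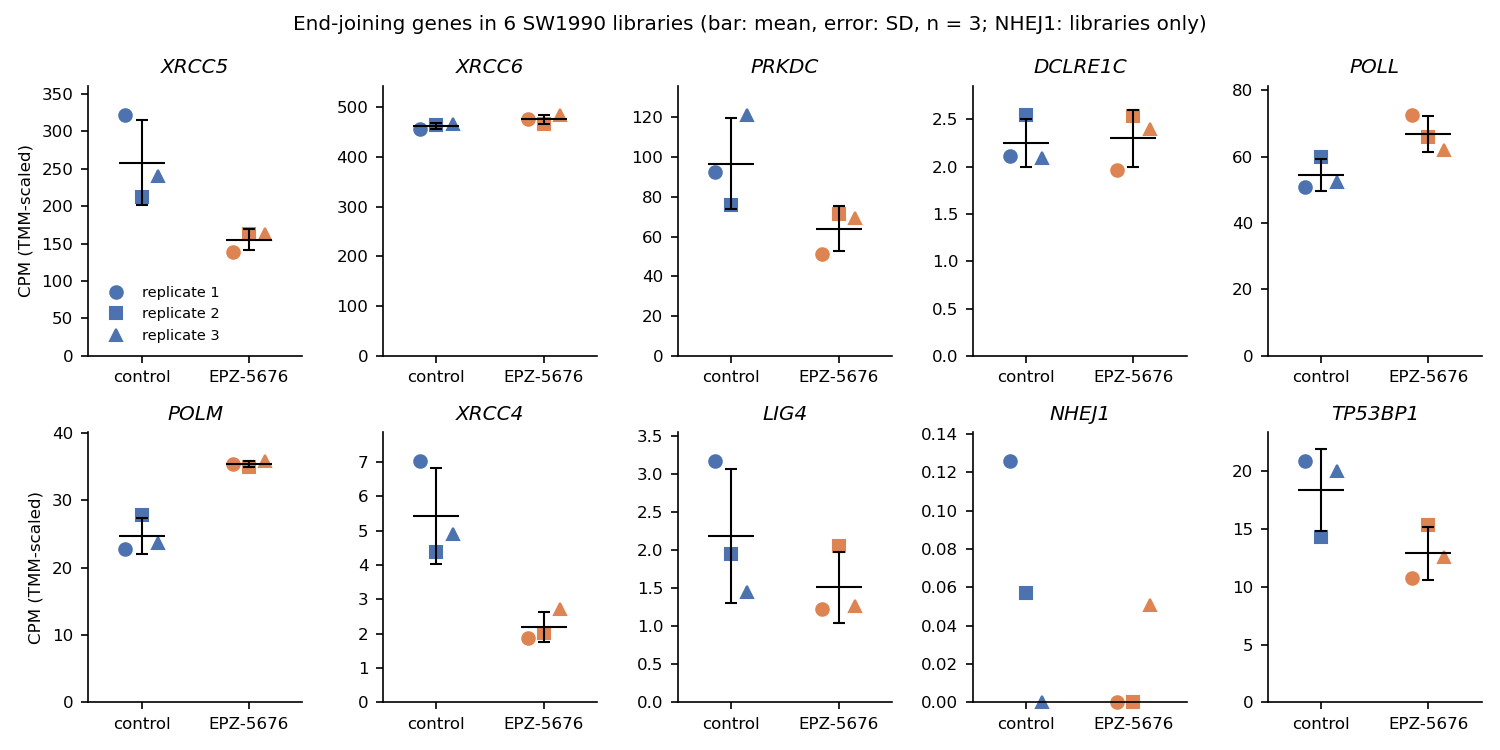
Level of each end-joining gene in the 6 libraries, in CPM after TMM scaling, with each axis starting at 0; points are libraries, the marker shape gives the replicate number, bars are means and error bars SD (n = 3), and NHEJ1 is drawn without them because it had at most 5 reads in a library. XRCC4, XRCC5 and PRKDC lay lower in every treated library, POLL and POLM higher, and XRCC6 was nearly level.

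The Ku subunits XRCC5 and XRCC6 form an obligate heterodimer, yet only the mRNA of XRCC5 fell. XRCC5 (ENSG00000079246, chr2:216107464-216206303, plus strand, GRCh38), which encodes Ku80, lay at 322, 212 and 241 CPM in control replicates 1 to 3 and at 139, 163 and 163 CPM in the treated replicates. The groups did not overlap, and control replicate 1 was the highest library by a wide margin. The log2 fold change was -0.74 ± 0.13 (SE), a level 1.67-fold lower in treated cells, with an adjusted p of 0.000362 in edgeR's test. The call held in all 24 alternative analyses, with log2 fold changes from -0.84 to -0.27.

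XRCC6 (ENSG00000196419, chr22:41621119-41664048, plus strand), which encodes Ku70, was the most abundant gene of the group. It lay at 456, 465 and 466 CPM in the controls and at 475, 467 and 485 CPM in the treated libraries. Every treated library was above every control, but by little, and the spread within a group was small, at 1.21% of the mean in controls and 1.84% in treated cells. The log2 fold change was 0.04 ± 0.09 with a 95% interval of -0.16 to 0.24 (adjusted p = 0.777, edgeR), so a change as large as that of XRCC5 lies outside the interval.

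PRKDC (ENSG00000253729, chr8:47773108-47960183, minus strand) encodes the kinase subunit that Ku brings to the break. It lay at 92.4, 76.0 and 121 CPM in controls and at 51.0, 71.5 and 69.4 CPM in treated cells. Each treated library was below each control, although control replicate 2 and treated replicate 2 were close. The log2 fold change was -0.59 ± 0.15, 1.51-fold lower (adjusted p = 0.00442, edgeR). Without control replicate 3, its highest library, the fold change was -0.39 and missed the threshold (adjusted p = 0.0606).

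DCLRE1C (ENSG00000152457, chr10:14897359-14954432, minus strand), the nuclease that PRKDC's product activates, was weakly expressed. Its libraries held 84, 89 and 78 reads in controls and 61, 89 and 95 reads in treated cells, or 2.11, 2.55 and 2.09 CPM and 1.96, 2.54 and 2.40 CPM. The groups overlapped. Its log2 fold change was 0.03 ± 0.30, and the 95% interval of -0.59 to 0.66 includes values as large as the -0.51 of TP53BP1 and the 0.52 of POLM (adjusted p = 0.944, edgeR).

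Both gap-filling polymerases of the X family rose. POLM (ENSG00000122678, chr7:44072247-44082540, minus strand), whose product can extend ends with little or no template, lay at 22.8, 27.8 and 23.7 CPM in controls and at 35.4, 35.0 and 35.8 CPM in treated cells. The treated libraries lay within 1.10% of their mean (SD as a percentage), and all were above the controls. Its log2 fold change was 0.52 ± 0.13, 1.43-fold higher (adjusted p = 0.00499, edgeR).

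POLL (ENSG00000166169, chr10:101578882-101588270, minus strand) lay at 51.0, 59.8 and 52.3 CPM in controls and at 72.6, 65.9 and 61.9 CPM in treated cells. Control replicate 2 came within a few CPM of treated replicate 3, but the groups did not overlap. Its log2 fold change was 0.30 ± 0.11, 1.23-fold higher, with an adjusted p of 0.0444 (edgeR) just inside the threshold. The call was lost without any one library except control replicate 2 (adjusted p of 0.062 to 0.189) and without the filter on low counts (0.0749).

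XRCC4 had the largest change of the group. The gene (ENSG00000152422, chr5:83077498-83353787, plus strand) encodes the scaffold that stabilises DNA ligase IV. It held 279, 153 and 183 reads in controls and 58, 71 and 107 reads in treated cells, or 7.02, 4.38 and 4.90 CPM and 1.87, 2.02 and 2.71 CPM. The groups were well apart, with the highest treated library below the lowest control. The log2 fold change was -1.30 ± 0.27, 2.46-fold lower (adjusted p = 0.00154, edgeR), and 1.46% of all tested genes had a more negative value.

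LIG4 (ENSG00000174405, chr13:108207439-108218368, minus strand), the ligase itself, held 126, 68 and 54 reads in controls and 38, 72 and 50 reads in treated cells. In CPM these were 3.17, 1.95 and 1.45 against 1.22, 2.05 and 1.26, so the groups overlapped. Its log2 fold change was -0.53 ± 0.37 with a 95% interval of -1.30 to 0.23 (adjusted p = 0.282, edgeR). The interval includes both 0 and the value of PRKDC. Its log2 fold change was -0.15 without control replicate 1, its highest library, and -0.81 without treated replicate 2.

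NHEJ1 (ENSG00000187736, chr2:219075317-219160865, minus strand), which encodes XLF, had 5, 2 and 0 reads in controls and 0, 0 and 2 reads in treated cells. It was left out of the tests, and no fold change is given. The 3 reads that a count of 0 allows would correspond to 0.0754 to 0.0966 CPM in these libraries. In GENCODE release 29, 2034 of its 3109 exon bases (65.4%) are shared on the same strand with AC068946.1, a protein-coding model that runs through NHEJ1 and had 2 reads in treated replicate 1 and none elsewhere. Reads that fall on 2 genes of the same strand are left unassigned by common counters. The counting rule is not stated, so these values cannot be read as absence of XLF mRNA, and the part of the shared exons in the low count was not tested.

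TP53BP1 (ENSG00000067369, chr15:43403061-43510728, minus strand) lay at 20.8, 14.3 and 19.99 CPM in controls and at 10.7, 15.3 and 12.6 CPM in treated cells. The groups overlapped, since treated replicate 2 was above control replicate 2. Its log2 fold change was -0.51 ± 0.18, 1.43-fold lower (adjusted p = 0.0309, edgeR). The call was lost without control replicate 1, control replicate 3, treated replicate 1 or treated replicate 3 (adjusted p of 0.146, 0.129, 0.147 and 0.0922). On the opposite strand, TUBGCP4 covers 28.7% of the exon bases of TP53BP1, and whether the counting used strand is not given. Reads of TUBGCP4 ran at 484 to 583 per control library and 347 to 482 per treated library.

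Divided by the length of the gene model, the levels in controls spanned a wide range. XRCC6 stood at 141 ± 1.70 CPM per kb (mean ± SD, n = 3) and XRCC5 at 47.3 ± 10.4. POLL followed at 10.0 ± 0.880 CPM per kb, and then PRKDC at 6.26 ± 1.48 and POLM at 5.52 ± 0.591, which did not differ beyond their spread. XRCC4 (2.03 ± 0.521) and TP53BP1 (1.41 ± 0.273) came next, with overlapping spreads. LIG4 (0.499 ± 0.202) and DCLRE1C (0.356 ± 0.0407 CPM per kb) were the lowest of the tested genes. In treated cells the order changed in 3 places. POLM, at 7.89 ± 0.0865 CPM per kb, stood above PRKDC at 4.15 ± 0.732. TP53BP1 at 0.991 ± 0.179 stood above XRCC4 at 0.822 ± 0.167, and DCLRE1C at 0.364 ± 0.0474 above LIG4 at 0.345 ± 0.106, both within their spread. The level of the ligase complex genes was therefore far below that of Ku in both groups on this per-length scale.

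The direction of the changes went with the composition of the transcripts. Both genes that rose had GC-rich longest transcripts, of 61.5% for POLM and 55.8% for POLL. XRCC6, with no call, had 50.7%. The 4 genes that fell had 45.7% (TP53BP1), 45.3% (PRKDC), 44.2% (XRCC5) and 36.7% (XRCC4). LIG4 at 36.2% and DCLRE1C at 41.3%, the least expressed of the tested genes, did not pass. The same trend ran through the whole table. In classes chosen after the values were seen, 48.7% of tested genes with under 40% GC were lower and 0.366% higher. Of genes with 40 to 50% GC, the class of XRCC5, PRKDC, TP53BP1 and DCLRE1C, 28.6% were lower and 2.00% higher. Of genes with 50% GC or more 2.08% were lower and 29.6% higher. Genomic span followed too. The 4 genes that fell span 98.8 to 276.3 kb, and POLL and POLM span 9.4 and 10.3 kb. Of the genes not called, LIG4 spans 10.9 kb, XRCC6 42.9 kb and DCLRE1C 57.1 kb. Of all tested genes spanning 80 kb or more, 29.1% were lower and 5.47% higher, while of those under 20 kb 9.15% were lower and 20.7% higher. From 20 to 80 kb, 24.5% were lower and 13.5% higher.

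**Figure D2:**
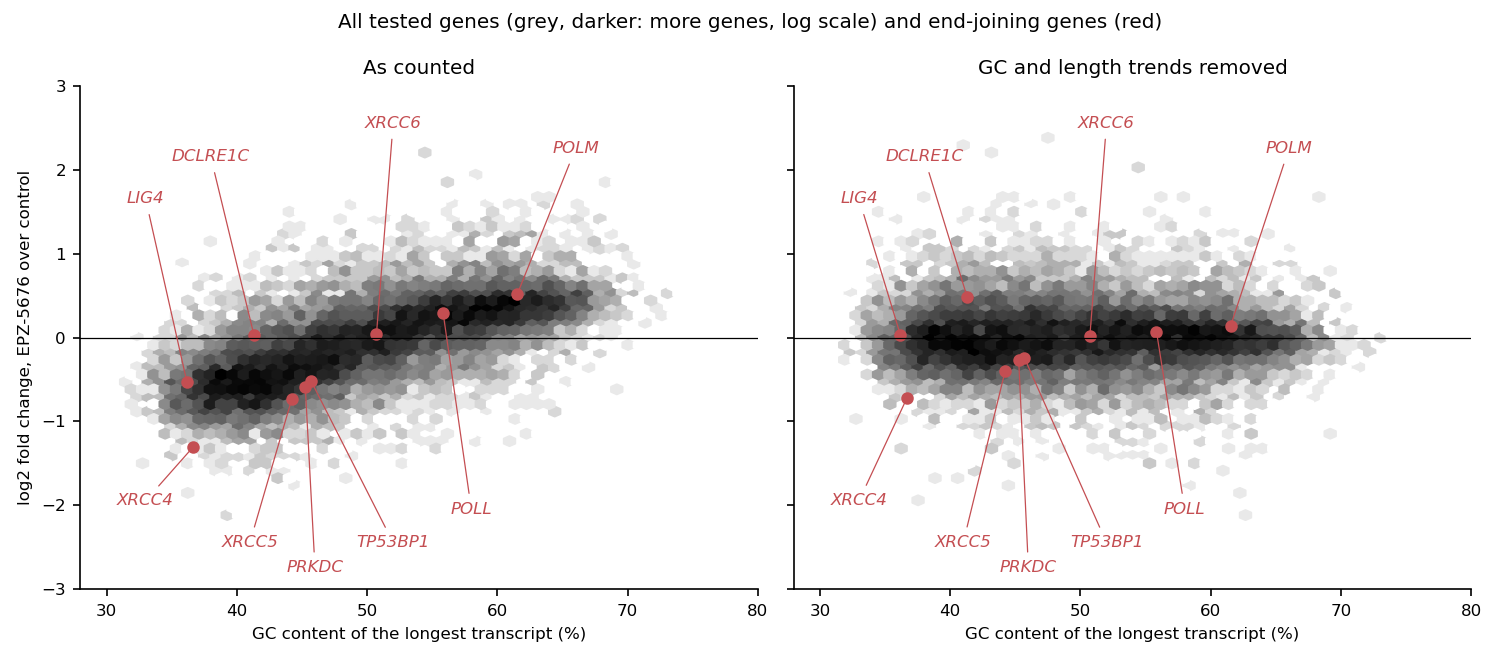
log2 fold change of every tested gene against the GC content of its longest transcript, as counted and after removal of GC and length trends; grey cells hold genes, darker where there are more on a log scale, and red points are the 9 tested end-joining genes. As counted, the points run from XRCC4 at -1.30, with LIG4 at nearly the same GC content and -0.53, to POLM at 0.52, and DCLRE1C lies above the other AT-rich genes at 0.03. Afterwards XRCC4 (-0.72), DCLRE1C (0.48) and XRCC5 (-0.40) lie farthest from 0.

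The trend was a property of whole libraries. A spline of each library's deviation from the gene mean on GC content and length was worth 0.44, 0.13 and 0.27 log2 units for XRCC4 in the controls and -0.41, -0.20 and -0.24 in the treated libraries. For POLM it was worth -0.31, -0.08 and -0.18 in the controls and 0.26, 0.13 and 0.18 in the treated libraries. Control replicate 1 and treated replicate 1 stood at the ends for both genes. The trend differs between the groups, so a technical bias and an effect of the compound that follows GC content cannot be told apart in these 6 libraries.

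With the trends removed, XRCC5 was lower by -0.40 ± 0.09 on the log2 scale (adjusted p = 0.00606, edgeR). It was the only one of the 9 genes called, against 5.58% of all tested genes called lower and 5.4% higher (11% in all). XRCC4 stood at -0.72 ± 0.24 and missed the threshold (adjusted p = 0.061). PRKDC stood at -0.27 ± 0.10 (0.0755) and TP53BP1 at -0.24 ± 0.14 (0.321), values from the same edgeR fit. POLM and POLL were at 0.14 ± 0.10 and 0.07 ± 0.09 (adjusted p = 0.441 and 0.679, edgeR). XRCC6 was again near 0, at 0.02 ± 0.07, and LIG4 moved from -0.53 to 0.03 ± 0.35. DCLRE1C also moved upward, from 0.03 to 0.48 ± 0.30, farther from 0 (adjusted p = 0.343, edgeR). Without control replicate 2 the corrected analysis called PRKDC as well (-0.35, adjusted p = 0.0321), while without control replicate 3 or treated replicate 1 its corrected value was -0.17 or -0.20 (0.349 and 0.301).

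**Figure D3:**
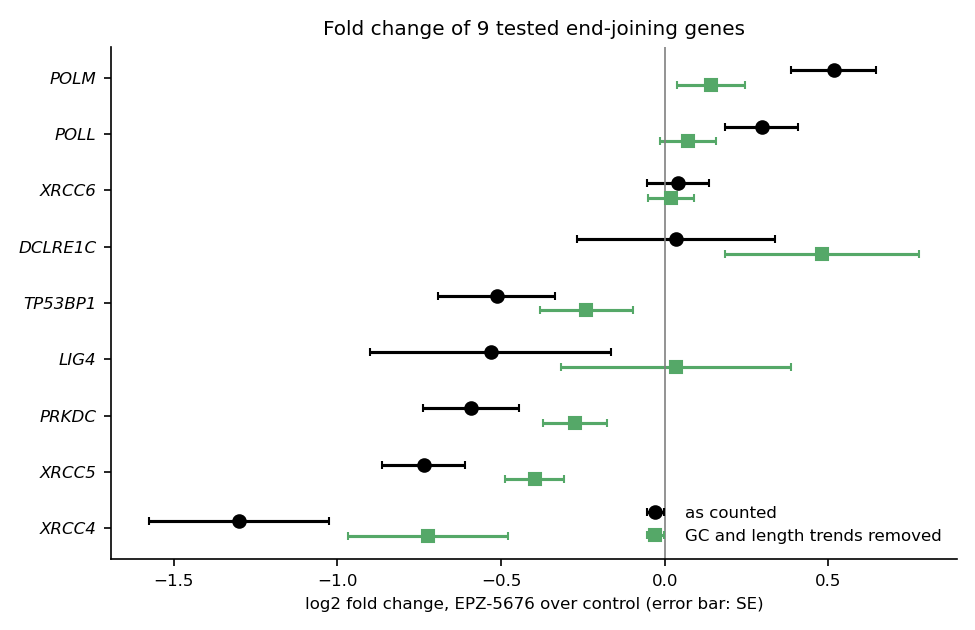
log2 fold change of the 9 tested end-joining genes, treated over control, from edgeR; black circles are as counted, green squares after removal of GC and length trends, and error bars are SE. The squares lie nearer 0 than the circles for every gene except DCLRE1C, and XRCC5, at -0.40, is the one that stays past the threshold.

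Ratios of a pair of genes within 1 library need no scaling between libraries. The ratio of XRCC5 to XRCC6 reads was 0.705, 0.456 and 0.516 in controls and 0.292, 0.349 and 0.337 in treated cells. Every treated library was below every control, a change in the mean log2 ratio of -0.76. The exact two-sided permutation test over samples gave p = 0.1, the smallest value that 3 against 3 allows, and 0.1 after adjustment over the 3 ratios computed. With the trends removed, the change was -0.40 and the groups still did not overlap (exact p = 0.1).

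XRCC4 and LIG4 have nearly the same GC content, and their ratio is little touched by the fitted trend. That trend differed between treated and control libraries by -0.565 log2 units for XRCC4 and -0.566 for LIG4. Their genomic spans of 276.3 and 10.9 kb differ, and span was not fitted, so its part in the ratio was not tested. The ratio of XRCC4 to LIG4 was 2.21, 2.25 and 3.39 in controls and 1.53, 0.986 and 2.14 in treated cells. These groups did not overlap, although treated replicate 3 came close to control replicate 1. The change in the mean log2 ratio was -0.80 as counted (exact permutation p = 0.1, also after adjustment) and -0.80 with the trends removed, where the groups overlapped (exact p = 0.2). The 38 to 126 reads of LIG4 per library limit this ratio.

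The ratio of POLL to POLM was 2.23, 2.15 and 2.21 in controls and 2.05, 1.88 and 1.73 in treated cells, a change in the mean log2 ratio of -0.22 (exact permutation p = 0.1, also after adjustment). POLM thus rose more than POLL in each treated library relative to the controls. With the trends removed the change was -0.071 and the groups overlapped (exact p = 0.4). A planned ratio of XRCC4 to NHEJ1 was not computed, since NHEJ1 had no reads in 3 libraries.

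**Figure D4:**
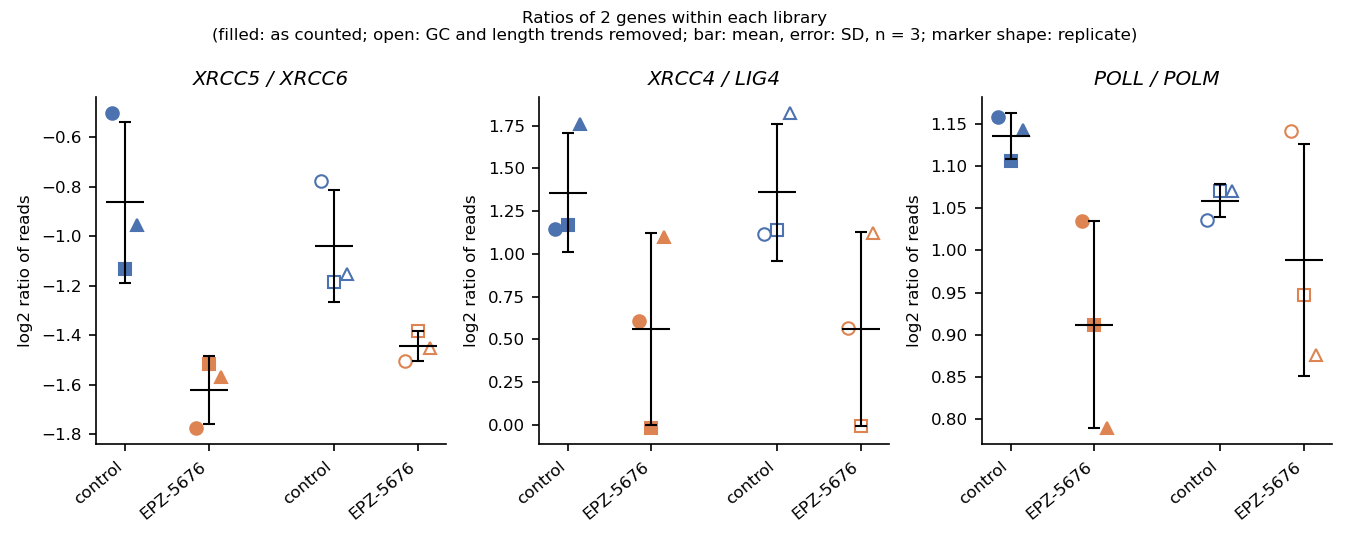
log2 ratio of the reads of 2 genes within each library, for 3 pairs; filled markers are as counted, open markers have the GC and length trends removed, the shape gives the replicate number, and bars and error bars are mean and SD (n = 3). As counted, all 3 ratios are lower in every treated library, and after removal of the trends only that of XRCC5 to XRCC6 still separates the groups.

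The genes that work around the core machinery were followed in 4 lists with 46 genes, of which 45 were tested, 13 lower and 5 higher. Their median log2 fold change was -0.27, and with the trends removed 6 were lower and 1 higher, with a median of -0.06 against -0.0045 over all genes. The counts below stand against the shares of 18.7% lower and 15% higher over all genes, or 5.58% and 5.4% with the trends removed. Fold changes of the list genes are log2 values ± SE from edgeR, and genes said to have risen or fallen passed an adjusted p of 0.05 as counted.

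Among accessory end-joining factors, 3 of 11 tested genes were lower and 2 higher, with a median of 0.02. Without control replicate 1 none of them was lower, and 1 was lower without control replicate 3, without treated replicate 3 or with the replicate block. PAXX, a paralog of XRCC4 and XLF that steadies Ku on DNA, rose from 67.8 ± 4.02 to 98.5 ± 4.50 CPM (0.54 ± 0.10). TDP2 (-0.51 ± 0.14), which frees ends blocked by topoisomerase II, and ERCC6L2 (-0.96 ± 0.34) fell, as did TDP1 (-0.38 ± 0.15), named after its values were seen because it completes the count of lower genes. The TDP1 call (adjusted p = 0.0462, edgeR) was lost with RLE or upper-quartile scaling, DESeq2, the replicate block or the length offset. It held with limma-voom, a 1 CPM filter, no filter and protein-coding genes alone. APTX (0.02 ± 0.11) did not pass, and CYREN (0.41 ± 0.16), an inhibitor of end joining, narrowly missed the threshold (adjusted p = 0.0547, edgeR). As counted, CYREN was called higher with RLE or upper-quartile scaling, a 1 CPM filter or DESeq2. It was not called with limma-voom, no filter, a replicate block, a length offset, protein-coding genes alone or any 1 library left out. With the trends removed PAXX, TDP2, ERCC6L2 and TDP1 were not called, and CYREN was, at 0.96 (adjusted p = 0.000299, edgeR). Genes on the opposite strand cover 23.2% of the exon bases of CYREN. DNTT, the template-free polymerase of lymphocytes, had no reads.

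In the list around 53BP1, 4 of 18 tested genes were lower and 3 higher, with a median of -0.28. RNF168, the ubiquitin ligase whose histone mark 53BP1 reads, fell from 27.5 ± 7.48 to 15.2 ± 0.994 CPM (-0.85 ± 0.17). The shieldin subunit SHLD2, which protects ends downstream of 53BP1, fell from 12.4 ± 4.10 to 5.52 ± 1.54 CPM (-1.16 ± 0.24). Both were still lower with the trends removed, at -0.52 (adjusted p = 0.0179, edgeR) and -0.61 (0.0411). SHLD2 was not called with the GC offset alone (0.0525) or with the replicate block added to the corrected fit (0.099). RNF168 was called in both (0.025 and 0.0392). Both corrected calls were lost without control replicate 1, treated replicate 1 or treated replicate 3, with adjusted p up to 0.138 for RNF168 and 0.275 for SHLD2, while their calls as counted held without any one library. GLUD1, on the opposite strand, covers 10.9% of the exon bases of SHLD2. Its reads ran at 6866 to 8968 per control library and 4311 to 5509 per treated library, against 332 to 680 and 117 to 245 for SHLD2, and their part in the SHLD2 values was not tested. NUDT16L1, whose product TIRR masks the histone-binding surface of 53BP1, rose from 44.5 ± 4.99 to 70.6 ± 9.16 CPM (0.66 ± 0.12). KMT5C, which methylates the histone H4 lysine that 53BP1 binds, rose as well (0.51 ± 0.12). The other members called, named after their values were seen, were its relative KMT5B (-0.60 ± 0.22), the shieldin subunits SHLD3 (-1.84 ± 0.69) and MAD2L2 (0.40 ± 0.10). The dynein light chain DYNLL1 (0.10 ± 0.10) and the histone gene H2AFX (0.13 ± 0.11) did not pass. With the trends removed H2AFX was called lower (-0.33, adjusted p = 0.0091, edgeR), except without treated replicate 3 (0.0563). NUDT16L1, KMT5C, KMT5B, SHLD3 and MAD2L2 were then not called (0.143, 0.793, 0.777, 0.237 and 0.926). As counted, the call of SHLD3 held in 1 of the 6 fits with a library left out. SHLD3 had 38, 34 and 34 reads in controls and 1, 19 and 8 reads in treated cells. TRAPPC13, on the same strand, shares 17.4% of the exon bases of SHLD3. Reads of TRAPPC13 ran at 229 to 281 per control library and 114 to 165 per treated library, and their part was not tested.

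Among genes of break sensing and its kinases, 4 of 8 tested genes were lower and 0 higher, with a median of -0.55. The kinase ATM (-0.89 ± 0.17), the nuclease MRE11 (-0.83 ± 0.16) and the checkpoint kinases CHEK1 (-0.60 ± 0.13) and CHEK2 (-0.53 ± 0.16) fell. CHEK2 went from 19.0 ± 1.98 to 13.1 ± 1.05 CPM and was the only one called with the trends removed (-0.50, adjusted p = 0.0162, edgeR). That call was lost without control replicate 1, treated replicate 1 or treated replicate 3 (adjusted p up to 0.0864), and the call as counted without control replicate 1 or treated replicate 3. ATRIP (-0.03 ± 0.13) and NBN (-0.48 ± 0.23) did not pass.

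Alternative end joining joins ends through short homologies without Ku. There, 2 of 8 tested genes were lower and 0 higher, with a median of -0.19. The polymerase theta gene POLQ (-0.75 ± 0.26) and RBBP8 (-0.68 ± 0.21), whose product CtIP starts resection, fell. PARP1 (-0.06 ± 0.10) and the flap nuclease FEN1 (-0.11 ± 0.10) did not pass. With the trends removed POLQ and RBBP8 were not called (adjusted p = 0.61 and 0.578, edgeR), while FEN1 (-0.27, 0.0342) and the ligase LIG1 (-0.27, 0.0485), named after its values were seen, were called lower. These 2 calls were lost with the GC offset alone (0.0588 and 0.0595) and with the replicate block added to the corrected fit (0.0577 and 0.0753). Leaving 1 library out of the corrected fit left 0 lower genes in this list, or 1 without control replicate 2. As counted, the list had 0 lower without control replicate 3, and 1 without control replicate 1, treated replicate 1 or treated replicate 3.

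**Figure D5:**
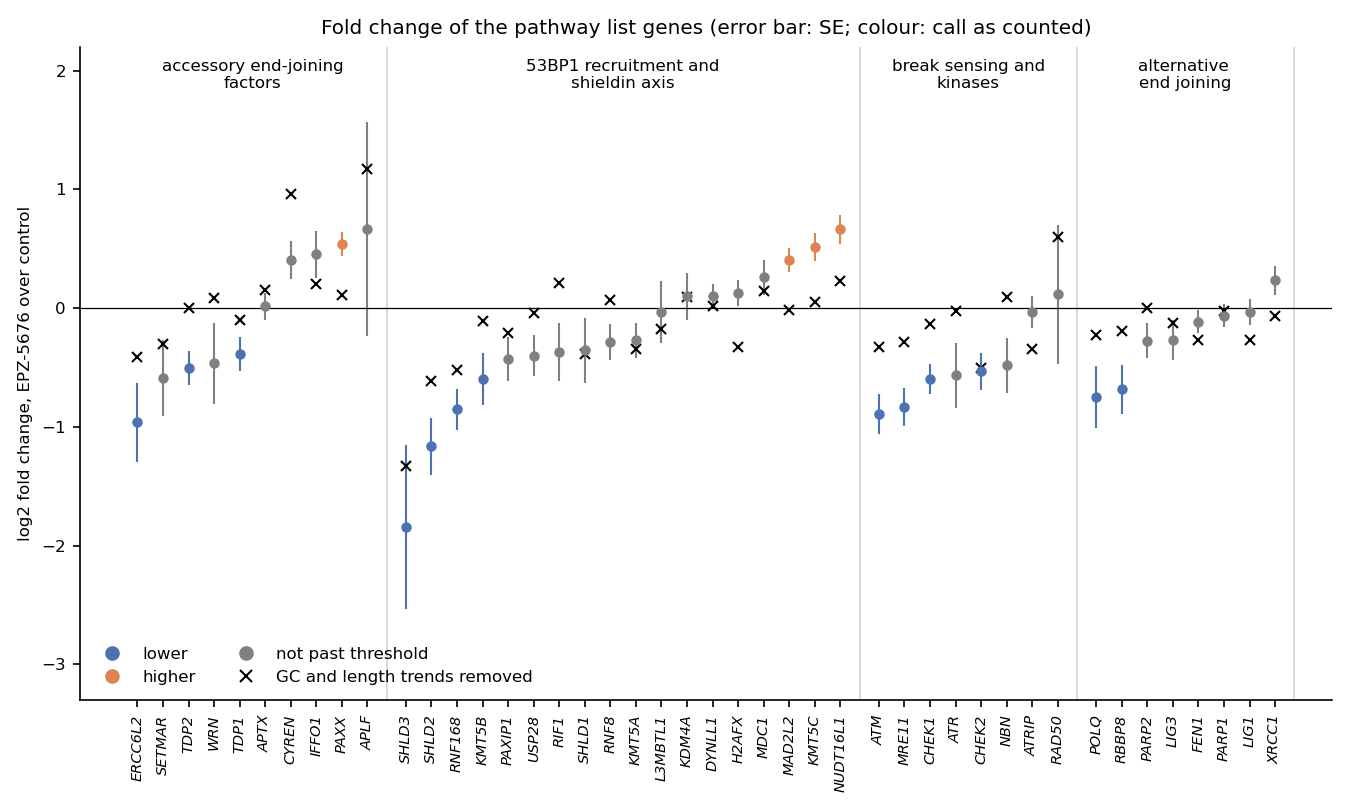
log2 fold change, treated over control, of tested genes of the 4 pathway lists, without 1 gene that is not reported by name; circles with SE bars are as counted and coloured by call, and crosses are after removal of GC and length trends. Blue points below 0 outnumber orange points above 0, and most crosses lie nearer 0.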

How the data were processed

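RNA-seq of 6 SW1990 samples was grouped by sample titles. Per the labels' protocols, poly(A) RNA was selected and dUTP went into the second cDNA strand. Per the submitters' processing notes, HISAT2 2.2.1 and GRCh38 were used. The authors deposited unnormalized read counts per gene. Which counter, strand setting and annotation made them is not stated. Gene IDs matched GENCODE release 29 for all 58735 genes, and 58724 had its start and end. Gene length in bases is a column of the deposited table and equals the merged exons of GENCODE for each of the 10 genes. Coordinates are 1-based.

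Tests used edgeR 4.0.16 (R 4.3.3) with filterByExpr (minimum count 10), TMM scaling, robust dispersions and a two-sided quasi-likelihood test over 15496 genes, and the SE is the fold change over the square root of F. Trends with GC content and log length of the longest transcript were fitted per library with natural splines (5 degrees of freedom each) on log2 CPM (prior count 2) and entered as offsets, which also removes any treatment effect that follows these properties. Alternatives used DESeq2 1.42.0, limma 3.58.1, other scalings, filters and offsets, a replicate block and each library left out. The script was tested on simulated data. Intervals cover the spread between libraries, and floors cover counting error only. Every member is named. From the lists, up to 4 called genes with the smallest p and the 2 most expressed others were named, with exceptions stated, and 1 further gene that the rule selects is counted in its list but not reported here. Members and lists were chosen with earlier results of these data known. Figures used Python 3.11.15 and matplotlib 3.10.9.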

Additional observations from a re-analysis of the deposited data

How the results depend on the processing

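In RLE and upper-quartile scaling, a filter at 1 CPM, DESeq2, limma-voom and protein-coding genes alone, 4 end-joining genes were lower and 2 higher, as in the reported fit. Without the low-count filter and with a replicate block, 1 was higher. With the length offset 2 were lower. PRKDC (-0.27, adjusted p = 0.0775, edgeR) and TP53BP1 (-0.24, 0.248) were then not called. Their longest transcripts have 13509 and 10384 bases. With the GC and length offset, the GC offset, and the GC and length offset with replicate block, 1 was lower and 0 higher. For the pathway lists these 3 settings gave 6, 3 and 3 lower and 1, 1 and 1 higher, and over all tested genes 864, 730 and 685 lower and 837, 762 and 689 higher. Of all calls, 44.5% were higher in the reported fit and 55.5% with the length offset. Leaving out 1 library gave 2 to 4 end-joining genes lower and 1 to 2 higher, 6 to 16 list genes lower, and 1753 to 3167 genes of the table lower and 1350 to 2780 higher. Without control replicate 3, PRKDC and TP53BP1 left the lower calls, and without control replicate 1 the lower list genes fell to 6, without control replicate 3 or treated replicate 3 to 8. With the GC and length offset and 1 library left out, 1 to 2 members were lower and 0 higher, 0 to 6 list genes lower and 1 to 2 higher, and 512 to 815 genes lower (566, 815 and 705 without control replicates 1 to 3, 512, 560 and 542 without treated replicates 1 to 3) and 397 to 856 higher (589, 856 and 523, then 397, 611 and 602). The change in log2 ratio with that offset was -0.40 for XRCC5 to XRCC6 and -0.071 for POLL to POLM. As counted, the changes were -0.76 for XRCC5 to XRCC6, -0.80 for XRCC4 to LIG4 and -0.22 for POLL to POLM. Leaving out 1 library from these uncorrected ratios gave -0.89 to -0.58, -1.06 to -0.51 and -0.29 to -0.16, in that order. Offsets remove fitted trends by construction, and the cause of the other differences was not tested.

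The replicate block lost the calls of POLL and TP53BP1 (adjusted p = 0.0988 and 0.0779) and left 3 members lower. Same-numbered samples did not deviate together (correlations of -0.11, -0.09 and 0.05 across genes), so the numbers were not taken to pair the samples. Among the end-joining members, depth limits LIG4, DCLRE1C and NHEJ1, with at most 126 reads in a library. Of the list genes called, SHLD3 had at most 38 reads in a library.

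Signs turned for some list genes with the trends removed. Under the GC and length offset, the GC offset, and the former with replicate block, TDP2 stood at 0.00048, 0.0067 and 0.0050, MAD2L2 at -0.016, -0.013 and -0.014, and H2AFX at -0.33, -0.33 and -0.33 on the log2 scale. With the GC and length offset and control replicate 1, control replicate 2, treated replicate 2 or treated replicate 3 left out, TDP2 stood at 0.061, 0.015, 0.016 and 0.0023. Without control replicates 2 and 3 and treated replicates 1 to 3, 1 at a time, MAD2L2 stood at -0.060, -0.028, -0.030, -0.015 and -0.00062. Without control replicates 1 to 3 and treated replicates 1 and 2, H2AFX stood at -0.39, -0.31, -0.29, -0.33 and -0.34. KMT5B stood at 0.090 without control replicate 1 and TDP1 at 0.00090 without treated replicate 3. As counted, 1 left-out library ended the calls of TDP2 (control replicate 1), KMT5B (control replicate 1, treated replicate 1 or 2), POLQ (control replicate 1 or 3, treated replicate 3), RBBP8 (control replicate 3, treated replicate 1), ERCC6L2 (control replicate 1 or 3, treated replicate 1 or 3) and TDP1 (control replicate 1 or 3, treated replicate 2 or 3).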

Other observations

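RAD50, the coiled-coil partner of MRE11 in break sensing, had 16 to 34 reads per library and a mean of 0.661 CPM, a gene chosen after its values were seen. In GENCODE release 29, 79.7% of its exon bases are shared on the same strand with AC116366.3, which had no reads in any library, as NHEJ1 shares 65.4% with AC068946.1. The other genes of the core and the 4 lists share at most 40.2% (KDM4A). Over the whole table, 908 protein-coding genes share 50% or more of their exon bases with another gene on the same strand, and 93.0% of them had a mean under 1 CPM. Of the 16526 protein-coding genes that share no exon base in this way the figure was 41.3%, and of the 2517 genes that share some but under 50% it was 33.3%. Genes in these classes also differ in kind and in expression, and how shared reads were assigned is not stated, so its part in these values was not tested.

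Per kb of gene model, MRE11 stood at 2.85 ± 0.341 CPM and NBN at 1.16 ± 0.321 CPM in controls (mean ± SD, n = 3). They encode the other proteins of the complex that contains RAD50, which stood at 0.0648 ± 0.0194 CPM per kb.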
